A study of Ciona robusta with 16 samples.

Results

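The extracellular matrix and integrin genes of *Ciona robusta* were followed here from the unfertilized egg to the hatched larva. They are the KY21 gene models whose closest human match in the study's protein tables is a collagen, laminin, nidogen, perlecan, fibrillin, fibulin, hemicentin, matrilin, tectorin, thrombospondin, tenascin, ADAM or MMP protease, or an integrin chain. The choice rested on these names and on no measured mRNA level. It gave 24 of the 18388 KY21 genes in the files, with 5 basement membrane genes, 3 other collagens, 6 elastic-fibre and matrilin-type glycoproteins, 3 tectorin-type proteins, 4 integrins and 3 metalloproteases. The protein tables were held only in part, so all members lie on 3 chromosomes (14 on Chr1, 5 on Chr10 and 5 on Chr11), and a family with 1 member here may have others elsewhere. Symbols are names of the closest human protein and make no statement on orthology. No KY21 sequence was at hand, and none is printed.

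The extracellular matrix is the protein scaffold that animal cells secrete and stand on. Its sheet-like form, the basement membrane, is built of laminin and collagen IV networks that nidogen and perlecan link, and it lies under epithelia and around muscle and the notochord. Integrins are receptors of an alpha and a beta chain that hold cells to this scaffold and connect it to actin inside the cell, while secreted and membrane-bound metalloproteases cut it. In an ascidian embryo the notochord, the tail muscle and the epidermis that makes the tunic all form within the first day.

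RNA was sequenced from wild-type, dechorionated whole embryos in 16 poly(A), strand-specific libraries, with 2 replicates of about 150 embryos at each of 8 stages. By hours post fertilization (hpf), the stage labels stand for eggs before (unfE, 0 hpf) and after fertilization (fertE, 0.4 hpf), cleavage at 16 cells (cell16, 2.65 hpf), the start of gastrulation (iniG, 4.5 hpf), the end of neurulation (latN, 7.4 hpf), a middle (midTII, 10.9 hpf) and a late tailbud embryo (latTII, 13.5 hpf), and the larva after hatching (17.5 hpf). Per stage, 1 library shares its fertilization with the proteomics samples and 1 was collected in a separate time course, and which number is which is not given in the sources used here. Levels are in TPM (transcript abundance corrected for transcript length and scaled to 1 total per library), and a gene with a mean TPM of at least 2 was called detected. In what follows, a pair of TPM values gives replicate 1 and then replicate 2.

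The libraries held 23.1 to 33.4 M estimated counts. Changes between stages were tested on these counts with edgeR's quasi-likelihood test in a single model of all stages, adjusted over the 14643 genes tested, and a change is called where the adjusted p is under 0.05. All 24 members passed the filter on low counts. The fold changes use TMM scaling, under which the median log2 change of all genes from unfE to larva was 0.26, against 0.64 with RLE size factors and -0.28 with library totals. TPM and fitted changes can therefore differ in sign for a gene that moved little. Salmon divides reads between similar copies, so the levels of the 2 COL4A6, 3 ITGB1 and 3 TECTA matches are less certain than those of single matches.

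Most of these mRNAs were already in the egg at low level, and most reached their highest level after neurulation. Of the 23 members detected at any stage, 18 (78.3%) were detected in unfE, beside 68.7% of all 13832 detected KY21 genes and 95.3% of the 2554 detected genes in the protein tables from which the members come. The other 5 were first detected in latN (HMCN1 and TECTA KY21.Chr1.2025), midTII (COL12A1 and FBLN5) or larva (TECTA KY21.Chr1.1992), and FBN2 was below the limit at every stage. Among the 18, the ITGB1 matches KY21.Chr10.1104 (1.51 and 5.08 TPM) and KY21.Chr10.1157 (1.69 and 7.38 TPM) passed the limit through unfE replicate 2 alone. The highest mean TPM fell in midTII, latTII or larva for 15 of 23 members (65.2%), beside 34.3% of all detected genes and 18.1% of those in the protein tables. These shares describe the list and were not tested.

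**Figure D1:**
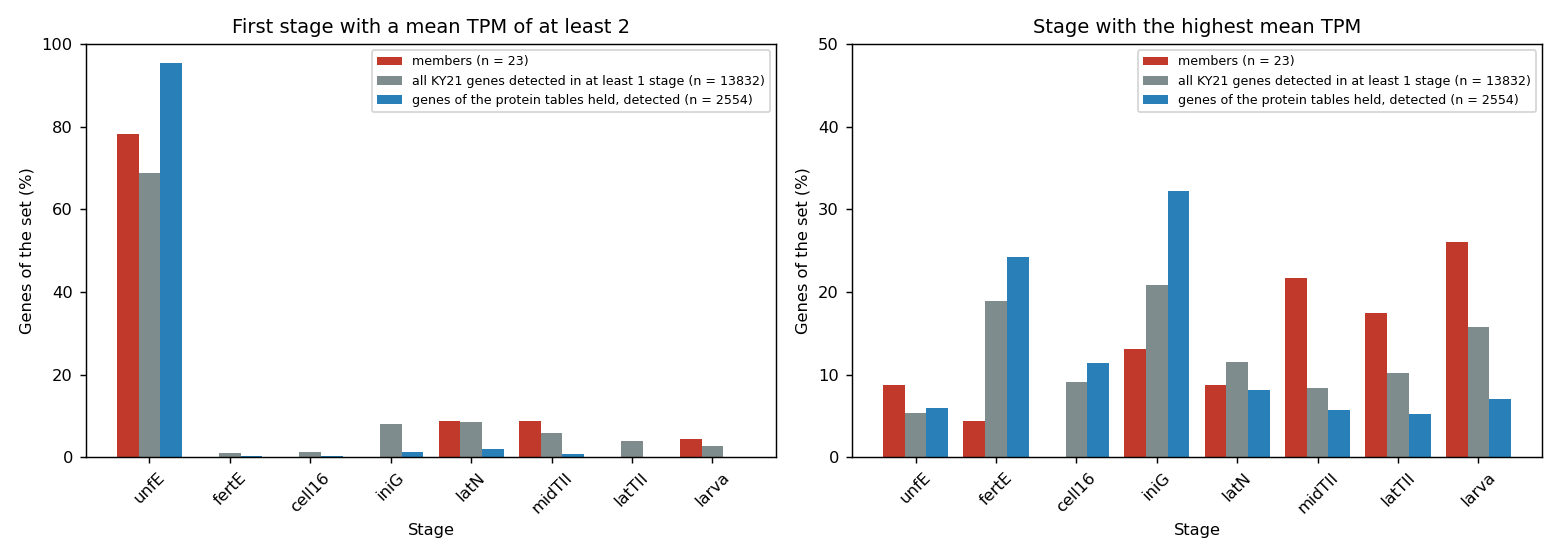
Share of genes (%) by first stage with a mean TPM of at least 2 (left) and by stage of the highest mean TPM (right), over the 8 stages, for 23 detected members (red), all 13832 detected KY21 genes (grey) and 2554 detected genes of the protein tables (blue). The members' bars are tallest in unfE for detection (78.3%) and together reach 65.2% in the last 3 stages for the peak.

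The summed TPM of the 24 members was 0.0757% of the TPM of all KY21 genes in unfE (SD 0.0046, n = 2) and 0.0927% in iniG. It was 0.366% by latN, 1.25% by midTII and 2.22% by latTII, and ended at 2.32% (SD 0.083, n = 2) in larva. The replicates of latN, midTII and latTII did not overlap with those of the stage before, while those of latTII and larva did. MATN2 alone made up 70.8% of the larval sum, and without it the sum was highest in latTII (0.955%) and lower in larva (0.676%). The make-up by role changed along with the total. Integrins held 36.3% of the members' TPM in unfE and 1.35% in larva, metalloproteases 25.9% and 0.214%, basement membrane genes 14.8% in unfE, 58.9% in latN and 18.9% in larva, and elastic-fibre and matrilin-type genes 12.6% and 73.0%. These are shares of a growing sum. The integrins' own summed TPM was 210 (SD 18, n = 2) in unfE and 240 (SD 24, n = 2) in larva. That of the metalloproteases was 150 (SD 13, n = 2) in unfE and 38.1 (SD 6.5, n = 2) in larva. These embryos were sampled whole, so more cells of a type and more RNA per cell cannot be told apart. The summed TPM of 9 muscle genes (ACTC1, MYL1, MYBPC3, CKM, TNNI1, TTN, MYH6, MYH7 and RYR3) lay between 31.3 and 32.5 in unfE, 81.6 and 152 in iniG, 1791 and 2186 in latN, 4615 and 5148 in midTII, 5881 and 6275 in latTII, and 4826 and 4884 in larva, with 4 of 9 detected in unfE and 9 of 9 from latN on. CKM did not share the course of this sum, with a mean of 8.94 TPM in unfE, 2.51 in latN (its lowest) and 11.3 in larva. The part of muscle cells in the members' changes was not tested.

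**Figure D2:**
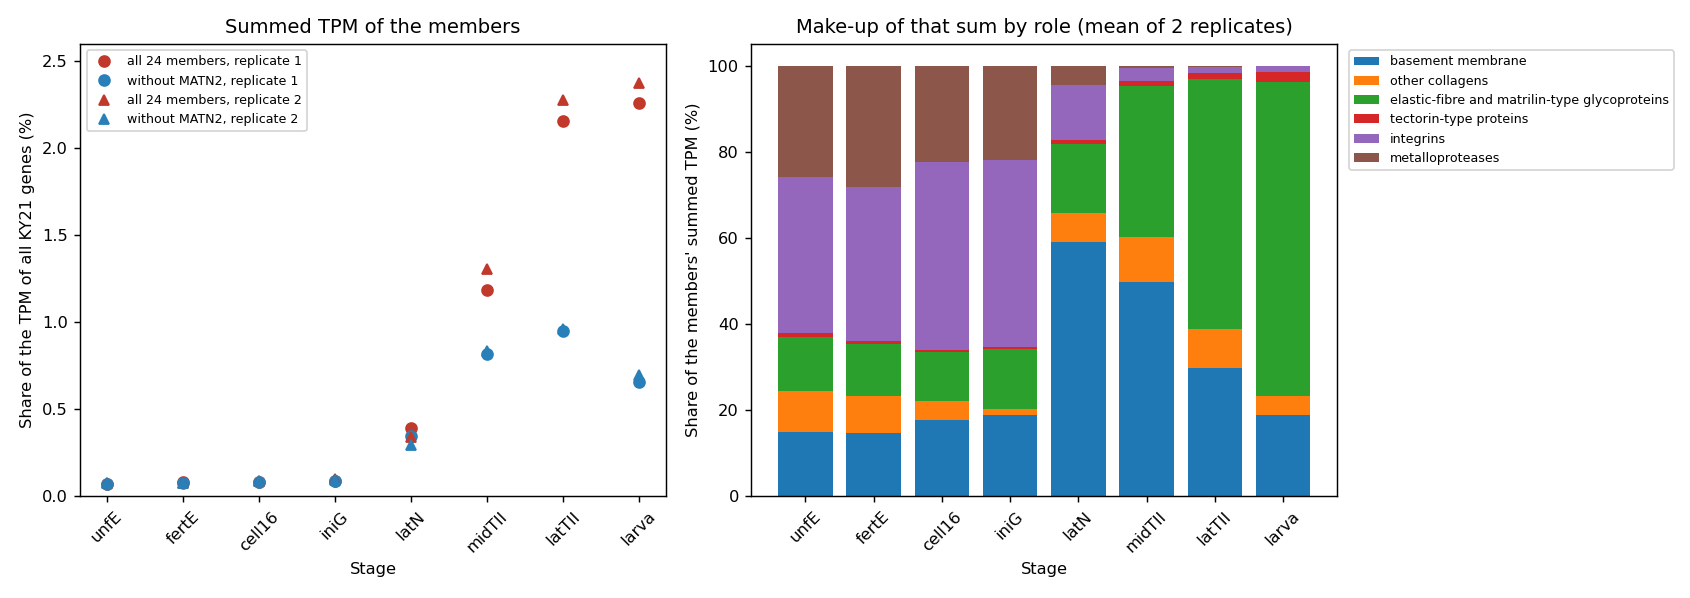
Left, summed TPM of the members as a share (%) of the TPM of all KY21 genes in each library (red, all 24 members; blue, without MATN2; circles and triangles, replicates 1 and 2); right, share (%) of the members' summed TPM by role (stacked bars, means of 2 replicates). The red points climb from 0.0757% in unfE to 2.32% in larva. The stack shows shares of a growing sum. It passes from integrins and metalloproteases to basement membrane genes in latN and to elastic-fibre and matrilin-type genes in larva. The integrins' own summed TPM was 210 in unfE and 240 in larva.

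The rises were gathered in the steps from gastrula to tailbud. From unfE to fertE no member was called by edgeR, DESeq2 or limma (2 of 24 had an unadjusted p under 0.05 in edgeR), where 0.00683% of all genes were called. The tests did not pair libraries, though same-numbered libraries deviated together between unfE and fertE (correlation 0.746) and between fertE and cell16 (0.75). Small changes shared by both replicates could thus have been missed in these steps. From fertE to cell16, 1 member changed, where 2.17% of all genes did. It rose, as did 1% of all genes, while 1.17% fell. From cell16 to iniG, 4 members changed (19.5% of all genes), of which 3 rose and 1 fell (11.6% and 7.9% of all genes). From iniG to latN, 12 members changed (29.9% of all genes), of which 10 rose and 2 fell (15.7% and 14.2%), with a median log2 change of 0.72 for the members and 0.02 for all genes. From latN to midTII, 11 members changed (33.7% of all genes), of which 10 rose and 1 fell (16.8% and 16.8%), with medians of 0.52 and 0.00.

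Both later steps held fewer calls than iniG to latN and latN to midTII, among the members and among all genes. From midTII to latTII, 6 members changed (9.06% of all genes), of which 5 rose and 1 fell (4.58% and 4.48%). From latTII to larva, 8 changed (8.45% of all genes), of which 2 rose and 6 fell (3.27% and 5.18%). Across the whole course, from unfE to larva, 17 members changed (71.3% of all genes), of which 14 rose and 3 fell (38.3% and 33%), with a median log2 change of 2.78 against 0.26 for all genes. Among the genes of the protein tables, 23.2% rose and 53.3% fell over the same span. With library totals in place of TMM factors, 13 members rose and 5 fell from unfE to larva, and with RLE size factors 17 and 3, while the share of higher genes among all called was 53.7% with TMM, 62.0% with RLE and 43.2% with library totals. For latN to midTII that share was 50.03%, 61.7% and 26.9%, and library totals gave 9 members up and 4 down. Over all stages together 21 of 24 members changed, where 83.1% of all genes did, and HSPG2, ITGA6 and TECTA KY21.Chr11.867 were not called.

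Most members that rose in the neurula rose again in the tailbud. Of the 10 that rose from iniG to latN, 8 rose again from latN to midTII, namely both COL4A6 matches, LAMA2, NID2, COL21A1, FBLN1, MATN2 and TECTA KY21.Chr1.2025. Of these, 4 (LAMA2, NID2, COL21A1 and FBLN1) fell between latTII and larva. Of all genes tested, 16.8% rose from latN to midTII and 5.18% fell from latTII to larva. The share of all genes that changed in more than 1 of these steps was not counted. The LAMA2 calls to midTII and to larva were lost in 6 and 7 of 26 alternatives. In 10 of the 24 members the highest stage mean was at least 100 times the lowest, in 5 it was 10 to 100 times, and in 9 under 10 times. The last group held ITGA6, ITGB1 KY21.Chr1.794, LAMA2, HSPG2, MATN3, MMP25 and ADAMTS15 among others. The group of 10 includes FBLN5 and TECTA KY21.Chr1.1992, whose lowest means of 0.024 and 0.023 TPM make the ratio uncertain. With lowest means under 2 TPM set to 2, the median ratio was 8.95 for the 23 detected members and 4.59 for all detected KY21 genes. The shares of all genes in the 3 groups were not counted.

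**Figure D3:**
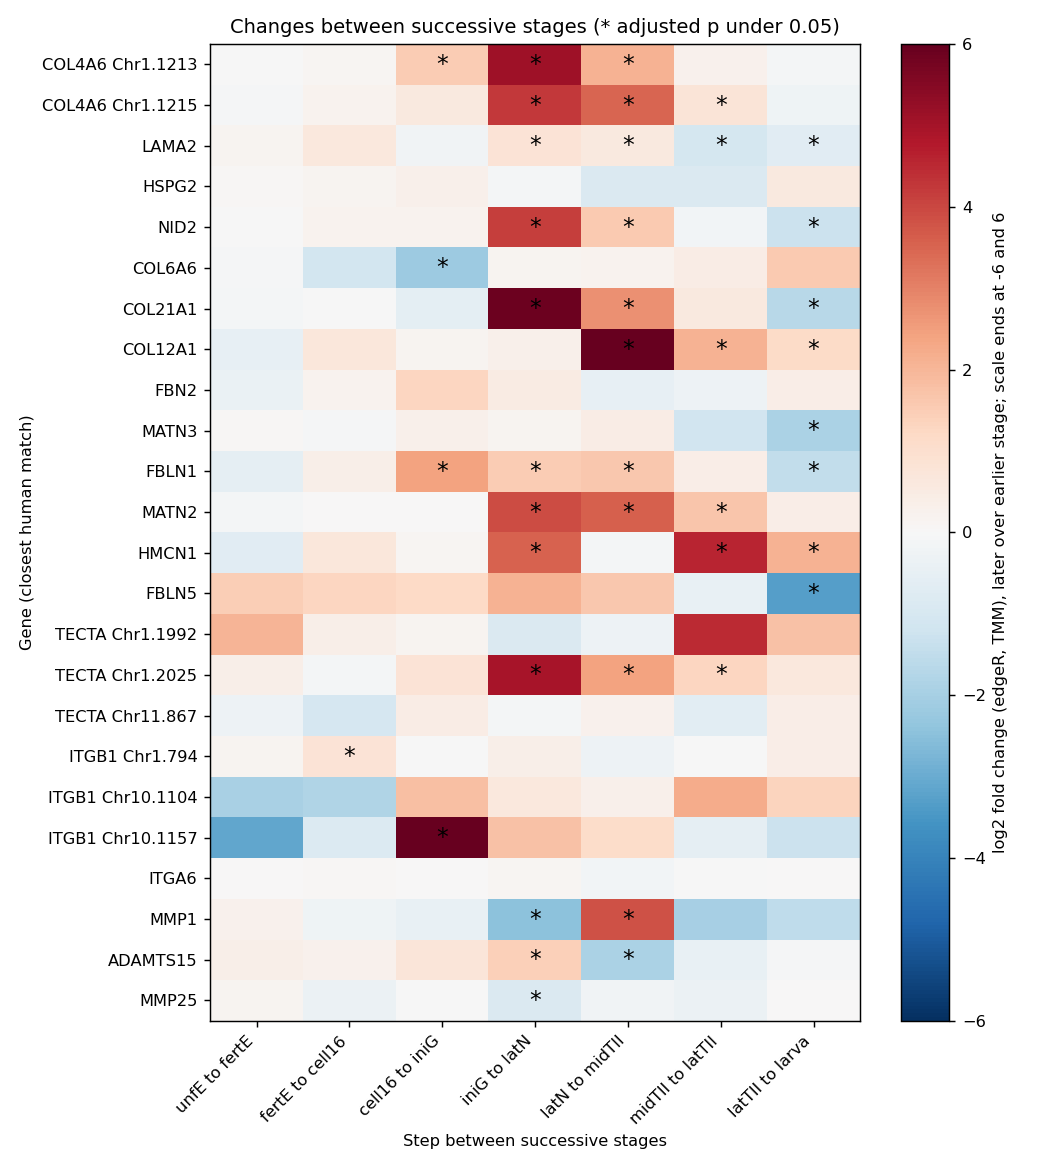
Fitted log2 fold change (colour, red higher and blue lower in the later stage) of each of the 24 members (rows, grouped by role) in each of the 7 steps between successive stages (columns), with a star where the adjusted p of edgeR's quasi-likelihood test is under 0.05. Stars on red cells gather in the columns iniG to latN (10) and latN to midTII (10), and stars on blue cells in latTII to larva (6).

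Among the basement membrane genes, the 2 collagen IV matches, whose gene numbers lie close together on Chr1, rose 467-fold and 496-fold from unfE to larva (log2 8.87 ± 0.20 and 8.96 ± 0.27, SE, edgeR adjusted p = 7e-12 and 3e-11). Collagen IV forms the covalent network of the basement membrane. COL4A6 KY21.Chr1.1213 stood at 3.08 and 3.02 TPM in unfE, 3.22 and 3.04 in fertE, 3.30 and 3.42 in cell16, 9.85 and 11.1 in iniG, 323 and 283 in latN, 881 and 988 in midTII, 1038 and 1090 in latTII, and 892 and 984 in larva. It was flat through cell16, and from there each stage to latTII lay above the one before in both replicates. It rose 2.88-fold from cell16 to iniG (log2 1.53 ± 0.15, SE, adjusted p = 1.2e-05, edgeR), 33.5-fold to latN (log2 5.07 ± 0.16, adjusted p = 3.6e-10) and 4.26-fold to midTII (log2 2.09 ± 0.14, adjusted p = 2.8e-07).

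COL4A6 KY21.Chr1.1215 stood at 4.29 and 4.84 TPM in unfE, 4.74 and 4.41 in fertE, 5.35 and 5.22 in cell16, 7.44 and 9.81 in iniG, 160 and 118 in latN, 996 and 1267 in midTII, 1634 and 2038 in latTII, and 1391 and 1580 in larva. It was the lower of the pair in iniG and latN and the higher of the pair at every other stage. Its rise was 18.8-fold from iniG to latN (log2 4.23 ± 0.22, edgeR adjusted p = 1.4e-08), 11.2-fold to midTII (log2 3.48 ± 0.21, adjusted p = 9.7e-08) and 1.68-fold to latTII (log2 0.75 ± 0.19, adjusted p = 0.027). The last call was lost without midTII replicate 1 or 2 or latTII replicate 2. The ratio of KY21.Chr1.1213 to KY21.Chr1.1215 was 0.616 to 0.718 in the 6 libraries of unfE, fertE and cell16, 1.32 and 1.13 in iniG, 2.01 and 2.39 in latN, 0.885 and 0.780 in midTII, 0.635 and 0.535 in latTII, and 0.641 and 0.623 in larva. The ratio thus turned over before tailbud and back again, with no overlap between latN and any other stage. It was not tested.

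**Figure D4:**
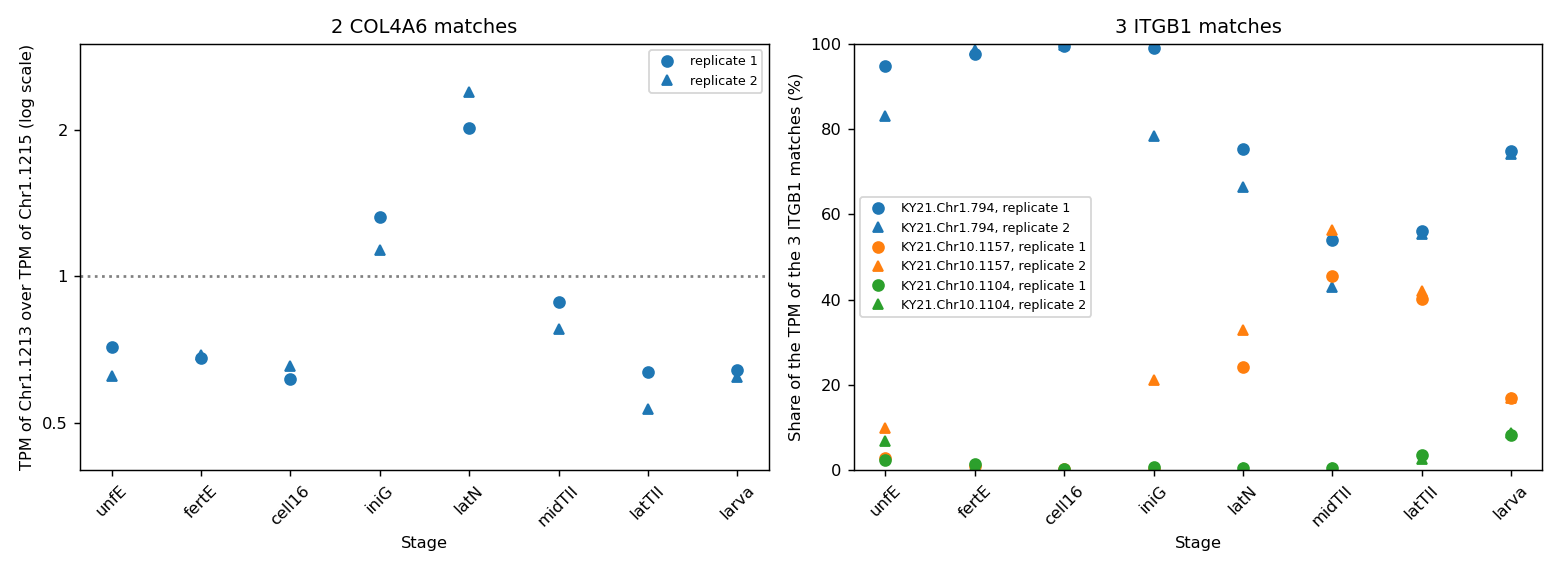
Left, ratio of the TPM of COL4A6 KY21.Chr1.1213 to that of KY21.Chr1.1215 in each library (log scale, dotted line at 1); right, share (%) of the summed TPM of the 3 ITGB1 matches held by each (circles and triangles, replicates 1 and 2). The ratio peaks in latN at 2.01 and 2.39, and KY21.Chr10.1157 takes 45.5% and 56.4% of the ITGB1-match TPM in midTII.

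NID2 (KY21.Chr11.335), a nidogen that links laminin to collagen IV, was abundant before them. It stood at 58.0 and 49.5 TPM in unfE, between 50.1 and 70.9 in fertE and cell16, at 79.7 and 82.0 in iniG, 1346 and 1145 in latN, 2716 and 2639 in midTII, 2435 and 2116 in latTII, and 894 and 927 in larva. In latN it alone held 42.1% of the members' TPM. It rose 17.8-fold from iniG to latN (log2 4.16 ± 0.22, edgeR adjusted p = 1.4e-08) and 2.97-fold to midTII (log2 1.57 ± 0.20, adjusted p = 5.3e-05), and fell by 1.28 on the log2 scale from latTII to larva (SE 0.19, adjusted p = 0.0015). The larval fall was not shared by the collagen IV matches, which were not called in that step, and the difference between them was not tested.

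LAMA2 (KY21.Chr1.1257), a laminin alpha chain, moved far less. Its levels were 17.4 and 20.7 TPM in unfE, 24.6 and 20.1 in fertE, 31.5 and 37.0 in cell16, 35.8 and 28.7 in iniG, 53.9 and 44.5 in latN, 54.6 and 52.0 in midTII, 24.1 and 25.7 in latTII, and 15.8 and 14.7 in larva. The larva was thus back below the egg on the TPM scale, while the fitted change from unfE to larva was 0.29 ± 0.18 (log2, SE, edgeR adjusted p = 0.16). From fertE to cell16 both replicates of LAMA2 lay higher without overlap, but edgeR did not call this change (log2 0.63 ± 0.18, adjusted p = 0.1). LAMA2 rose from iniG to latN (log2 0.82 ± 0.18, edgeR adjusted p = 0.0033), and fell by 1.05 from midTII to latTII (log2, SE 0.18, adjusted p = 0.0025). The replicates of latN and midTII overlapped in TPM, and the call of a rise between them (log2 0.58 ± 0.18, edgeR adjusted p = 0.021) was lost with library totals (log2 0.12), with limma on TPM, and without latN replicate 2 or midTII replicate 1. The fall from latTII to larva (log2 -0.67 ± 0.18, edgeR adjusted p = 0.034) was lost with library totals and without any 1 of the 4 libraries of those stages.

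HSPG2 (KY21.Chr10.132) matches perlecan, the large heparan sulphate proteoglycan of basement membranes. It was low, at 2.48 and 7.92 TPM in unfE, 2.45 and 8.95 in fertE, 2.12 and 10.7 in cell16, 8.08 and 8.89 in iniG, 6.14 and 7.55 in latN, 4.01 and 1.35 in midTII, 0.633 and 2.25 in latTII, and 1.90 and 2.29 in larva. Replicate 2 was 3.20 to 5.04 times replicate 1 in the 3 stages before gastrulation. No change was called at any step or over all stages (edgeR adjusted p = 0.51).

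The other 3 collagens followed 3 courses. COL21A1 (KY21.Chr1.567), the match of a small fibril-associated collagen, rose in the same 2 steps as both collagen IV matches and then turned down at hatching. It lay between 3.70 and 6.75 TPM in all 8 libraries through iniG, then at 245 and 156 in latN, 874 and 1078 in midTII, 1185 and 1614 in latTII, and 439 and 419 in larva. The step to latN was 58.8-fold (log2 5.88 ± 0.27, edgeR adjusted p = 6.2e-09) and that to midTII 6.69-fold (log2 2.74 ± 0.23, adjusted p = 2.1e-06). From latTII to larva it fell by 1.66 on the log2 scale (SE 0.22, edgeR adjusted p = 0.00061).

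COL12A1 (KY21.Chr1.709), the match of a collagen that decorates fibrils in tendon and other load-bearing tissue, came on 1 stage later and did not turn down. It stayed at or below 1.05 TPM in all 10 libraries through latN, and then stood at 33.5 and 43.2 in midTII, 138 and 173 in latTII, and 328 and 332 in larva. It rose 63.4-fold from latN to midTII (log2 5.99 ± 0.24, edgeR adjusted p = 4.2e-09), 4.20-fold to latTII (log2 2.07 ± 0.19, adjusted p = 2.9e-05) and 2.19-fold to larva (log2 1.13 ± 0.18, adjusted p = 0.0021). Its 2 larval values were above those of every earlier library.

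COL6A6 (KY21.Chr1.395), the match of a chain of the beaded-filament collagen VI, was highest in the egg. Its levels were 34.8 and 64.9 TPM in unfE, 33.1 and 64.6 in fertE, 9.73 and 35.8 in cell16, 5.88 and 4.76 in iniG, 4.62 and 5.64 in latN, 6.21 and 2.23 in midTII, 6.17 and 5.10 in latTII, and 12.4 and 19.9 in larva. It fell by 2.18 from cell16 to iniG (log2, SE 0.59, edgeR adjusted p = 0.022). That call was lost with limma on TPM, with no filter on low counts, and without cell16 replicate 2 or either iniG replicate.

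**Figure D5:**
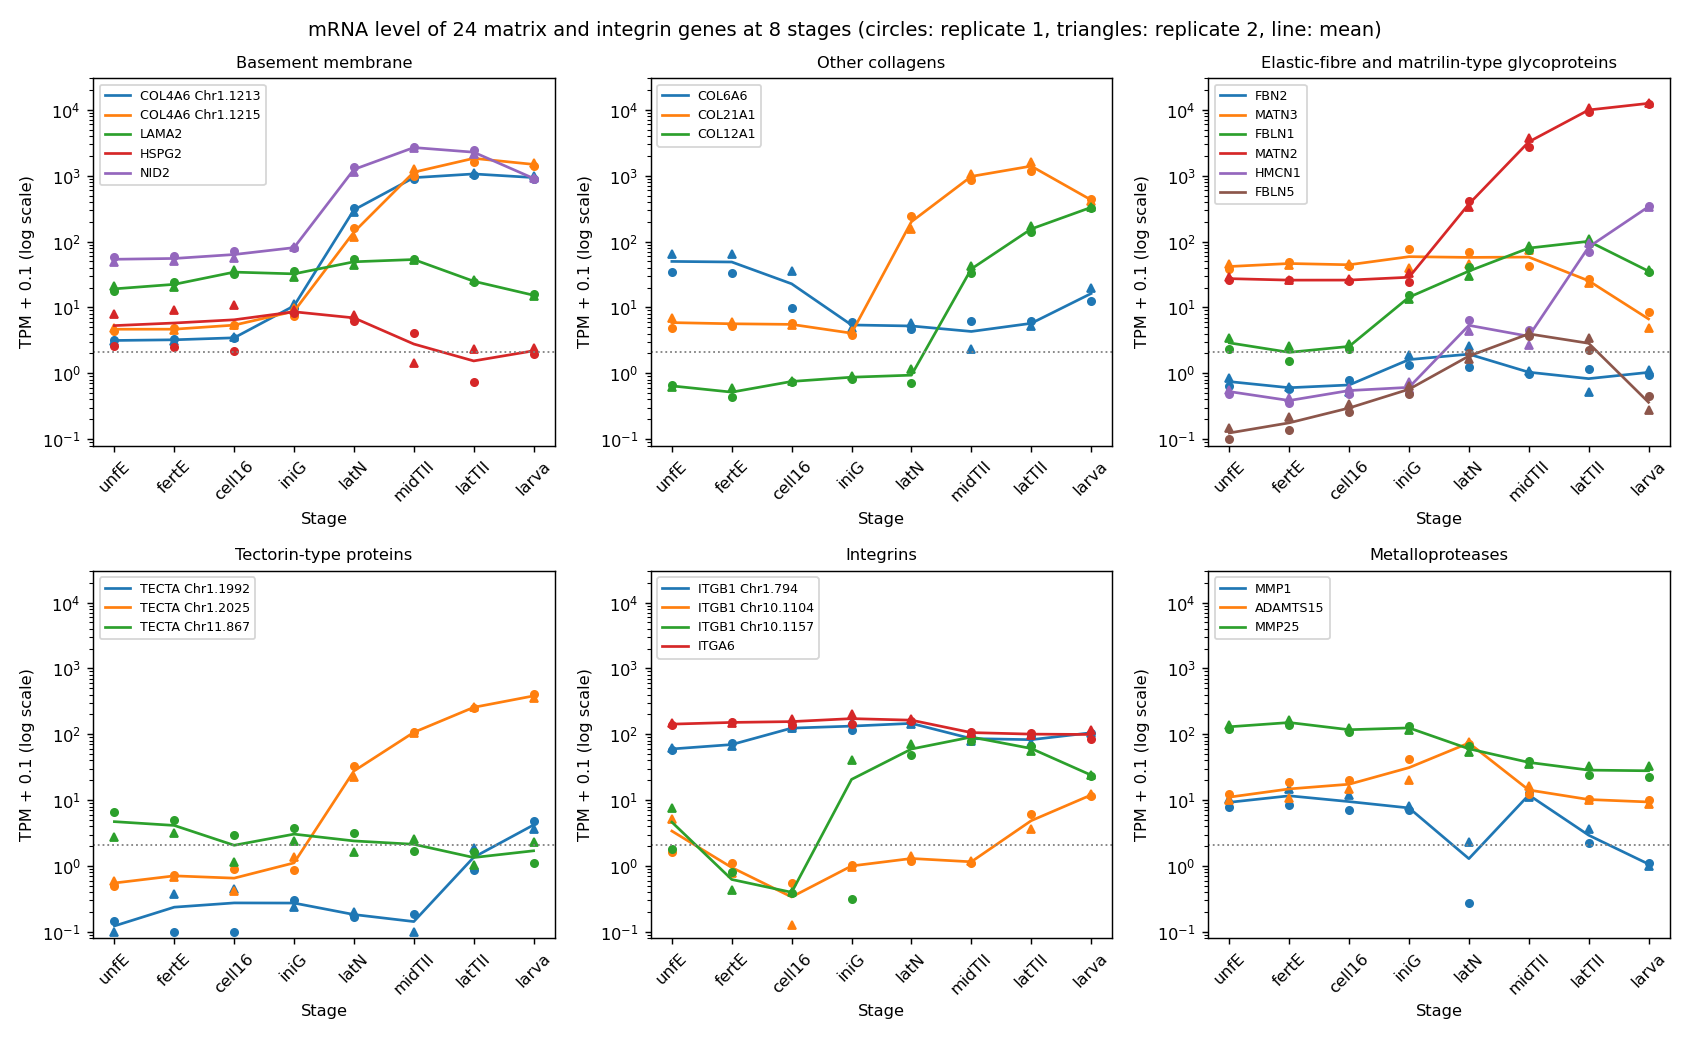
TPM + 0.1 (log scale) of the 24 members at the 8 stages in 6 panels by role (circles, replicate 1; triangles, replicate 2; lines, means; dotted line, the detection limit of 2 TPM). Some lines of the basement membrane, other collagen, matrilin and tectorin panels climb between iniG and midTII, among them MATN2, which reaches 12286 and 12818 TPM in larva. Lines of the same panels that do not climb there are HSPG2, COL6A6, MATN3, FBN2, TECTA KY21.Chr1.1992 and TECTA KY21.Chr11.867. ITGA6 stays between 84.0 and 200.1 TPM.

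MATN2 (KY21.Chr1.2187), the match of matrilin-2, an adaptor protein of matrix filaments, had the highest level of all members. It was at 25.7 and 28.9 TPM in unfE, between 24.0 and 33.2 through iniG, at 408 and 336 in latN, 2765 and 3769 in midTII, 9139 and 10783 in latTII, and 12286 and 12818 in larva. By mean TPM it ranked 6448 among KY21 genes in unfE and 2 in larva. It rose 15.1-fold from iniG to latN (log2 3.92 ± 0.20, edgeR adjusted p = 1.2e-08), 12.1-fold to midTII (log2 3.60 ± 0.20, adjusted p = 3.9e-08) and 3.17-fold to latTII (log2 1.66 ± 0.18, adjusted p = 0.00014). The last step to larva was not called.

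MATN3 (KY21.Chr1.591), the match of the cartilage protein matrilin-3, had no called rise and was lowest in larva. It lay between 38.6 and 49.0 TPM in unfE, fertE and cell16, and its replicates were 78.0 and 39.8 in iniG, 69.1 and 45.7 in latN, 42.1 and 74.1 in midTII, 27.1 and 23.5 in latTII, and 8.37 and 4.80 in larva. The larval values were the 2 lowest of the 16. MATN3 fell by 1.90 from latTII to larva (log2, SE 0.36, edgeR adjusted p = 0.0068), a call lost without larva replicate 2, and by 2.06 from unfE to larva (SE 0.37, adjusted p = 0.00025).

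HMCN1 (KY21.Chr10.728) matches hemicentin, which in the worm *C. elegans* anchors tissues to each other across basement membranes. It rose in separate steps, with 0.250 to 0.627 TPM through iniG, 6.26 and 4.24 in latN, 4.48 and 2.61 in midTII, 70.2 and 95.0 in latTII, and 346 and 331 in larva. The rise to latN was 11.7-fold (log2 3.55 ± 0.35, edgeR adjusted p = 5.7e-06), latN and midTII overlapped with no call, and the next steps were 24.0-fold (log2 4.58 ± 0.31, adjusted p = 2.3e-06) and 4.22-fold (log2 2.08 ± 0.27, adjusted p = 0.00048). The midTII to latTII step was the largest called change of any member in that step.

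FBLN1 (KY21.Chr1.1298), a fibulin of basement membranes and elastic fibres, was among the first to rise. It had 1.46 to 3.33 TPM through cell16, 15.3 and 13.1 in iniG, 40.8 and 30.3 in latN, 74.6 and 84.4 in midTII, 90.7 and 111 in latTII, and 34.1 and 36.8 in larva. Its rise from cell16 to iniG was 5.36-fold (log2 2.42 ± 0.26, edgeR adjusted p = 3.6e-05), followed by 2.90-fold to latN and 3.08-fold to midTII. From latTII to larva it fell by 1.46 on the log2 scale (SE 0.24, edgeR adjusted p = 0.0025).

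The remaining members of this role were scarce. FBLN5 (KY21.Chr11.1079), the match of a fibulin needed for elastic fibre assembly in mammals, was at 0 and 0.048 TPM in unfE, 1.93 and 1.53 in latN, 3.57 and 4.17 in midTII, 2.18 and 3.33 in latTII, and 0.352 and 0.174 in larva, so the detected window was midTII and latTII. It was called lower in larva than in latTII (edgeR adjusted p = 0.030), on 7.9 and 3.9 estimated counts in larva, and the call was lost without either midTII or larva replicate or latTII replicate 2. Its call as higher in larva than in unfE (edgeR adjusted p = 0.0055, on 0 and 1.1 counts in unfE) was lost without unfE replicate 1, and no fold is given. FBN2 (KY21.Chr1.382), the match of the microfibril protein fibrillin-2, ranged from 0.412 to 2.54 TPM over the 16 libraries with its highest mean in latN, and changed over all stages together (edgeR adjusted p = 0.029) but in no single step.

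The 3 tectorin matches shared a name and not a course. TECTA is a zona pellucida-domain protein of the tectorial membrane in the mammalian inner ear, and what its matches do in *Ciona* is not given in the sources used here. TECTA KY21.Chr1.2025 lay between 0.322 and 1.26 TPM through iniG, and then at 33.1 and 22.1 in latN, 109 and 104 in midTII, 250 and 263 in latTII, and 412 and 353 in larva. It was higher at each stage from latN on than at the stage before in both replicates. It rose 31.0-fold to latN (log2 4.95 ± 0.32, edgeR adjusted p = 9.8e-08), 5.34-fold to midTII (log2 2.42 ± 0.26, adjusted p = 1.5e-05) and 2.48-fold to latTII (log2 1.31 ± 0.25, adjusted p = 0.0051), and the last of these calls was lost without midTII replicate 2.

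TECTA KY21.Chr1.1992 stayed at or below 0.350 TPM through midTII, with 0.767 and 1.74 in latTII and 4.67 and 3.53 in larva. It was called higher in larva than in unfE (edgeR adjusted p = 0.0027), where its estimated counts were 1.1 and 0 in unfE and 88.3 and 67.1 in larva, and no fold is given. TECTA KY21.Chr11.867 was at 6.60 and 2.63 TPM in unfE and between 0.931 and 4.98 from fertE on, with no call in any step or over all stages (edgeR adjusted p = 0.63). In unfE it held 93.7% and 84.0% of the TPM of the 3 matches, and in larva KY21.Chr1.2025 held 98.6% and 98.4%.

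The integrins held a chain with steady levels, a chain that rose in cleavage and 2 chains that were late. ITGA6 (KY21.Chr10.1171) matches an alpha chain of the laminin receptors. Its values were 136 and 149 TPM in unfE, 152 and 151 in fertE, 138 and 173 in cell16, 145 and 200.1 in iniG, 159 and 169 in latN, 107 and 105 in midTII, 103 and 97.6 in latTII, and 84.0 and 114 in larva. The later 3 stages lay below the earlier 5 on the TPM scale in every library. No change was called in any step or over all stages (edgeR adjusted p = 0.91), and the fitted change from unfE to larva was 0.09 ± 0.17 (log2, SE), a value whose TPM moved the other way.

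ITGB1 KY21.Chr1.794, a match of the beta chain that pairs with most matrix-binding alpha chains, stood at 58.0 and 61.5 TPM in unfE, 73.8 and 65.6 in fertE, 125 and 123 in cell16, 114 and 152 in iniG, 148 and 144 in latN, 93.9 and 77.9 in midTII, 92.5 and 72.8 in latTII, and 105 and 106 in larva. It was the only member that edgeR called from fertE to cell16 (log2 0.84 ± 0.18, adjusted p = 0.025), with no overlap between the replicates of those stages. The call was lost without any 1 of those 4 libraries, where the log2 change stayed between 0.72 and 0.97 over all alternatives. From unfE to larva it rose 2.68-fold (log2 1.42 ± 0.18, edgeR adjusted p = 1.1e-05).

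The other ITGB1 matches were late. ITGB1 KY21.Chr10.1157 had 1.69 and 7.38 TPM in unfE, 0.714 and 0.333 in fertE, 0.293 and 0.304 in cell16, 0.214 and 40.9 in iniG, 47.6 and 71.6 in latN, 79.2 and 102 in midTII, 66.2 and 55.3 in latTII, and 23.5 and 24.3 in larva. The 2 gastrula libraries differed 191-fold, replicate 1 lying with the earlier stages and replicate 2 near latN. The called rise from cell16 to iniG (log2 5.99 ± 1.55, edgeR adjusted p = 0.018) rests on that library, since without iniG replicate 2 the log2 change was -0.54 (adjusted p = 0.80). All libraries of latN, midTII and latTII lay above all of unfE, fertE and cell16. The rise from unfE to larva (log2 3.06 ± 1.23, edgeR adjusted p = 0.040) was lost in 17 of 26 alternatives, among them leaving out either unfE or either larva replicate.

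ITGB1 KY21.Chr10.1104 was at 1.51 and 5.08 TPM in unfE, between 0.0268 and 1.32 from fertE to midTII, at 5.998 and 3.546 in latTII, and at 11.4 and 12.4 in larva. It rose 5.66-fold from unfE to larva (log2 2.50 ± 0.77, edgeR adjusted p = 0.011), a call lost without unfE replicate 1. KY21.Chr1.794 held 97.7% to 99.7% of the TPM of the 3 ITGB1 matches in fertE and cell16, 53.9% and 43.0% in midTII, and 75.0% and 74.3% in larva. In midTII, KY21.Chr10.1157 held 45.5% and 56.4%. The TPM of ITGA6 was 2.22 and 2.01 times the sum of these matches in unfE and 0.603 and 0.802 times in larva.

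Among the roles of the members, the metalloproteases were the only one with calls of a fall and none of a rise from unfE to larva. MMP25 (KY21.Chr11.1305) matches a membrane-anchored matrix metalloprotease. It lay at 121 and 139 TPM in unfE, 139 and 162 in fertE, 108 and 126 in cell16, 135 and 114 in iniG, 67.1 and 53.1 in latN, 39.1 and 35.6 in midTII, 24.3 and 32.7 in latTII, and 22.6 and 33.1 in larva. All 8 libraries through iniG were above all later ones. It fell by 1.61 from unfE to larva (log2, SE 0.26, edgeR adjusted p = 8.8e-05), and by 0.85 from iniG to latN (SE 0.25, adjusted p = 0.021), a call lost without iniG replicate 1 or latN replicate 2.

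ADAMTS15 (KY21.Chr11.1043) matches a secreted protease that cuts large proteoglycans, and its mRNA marked the neurula. It had 12.1 and 9.91 TPM in unfE, 18.9 and 10.5 in fertE, 19.8 and 14.9 in cell16, 42.0 and 20.1 in iniG, 71.6 and 75.5 in latN, 12.1 and 16.2 in midTII, 10.14 and 10.10 in latTII, and 9.86 and 8.70 in larva. Both latN values were above every other library. It rose 2.71-fold from iniG to latN (log2 1.44 ± 0.36, edgeR adjusted p = 0.0086), a call lost without iniG replicate 2, and fell by 1.91 from latN to midTII (log2, SE 0.37, adjusted p = 0.0014).

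MMP1 (KY21.Chr1.336), the match of an interstitial collagenase, did the reverse in the same steps. Its values were 6.87 to 14.8 TPM in the 8 libraries through iniG, 0.170 and 2.21 in latN, 12.5 and 11.2 in midTII, 2.12 and 3.55 in latTII, and 1.03 and 0.909 in larva. It fell by 2.46 from iniG to latN (log2, SE 0.80, edgeR adjusted p = 0.033) and rose by 3.81 to midTII (SE 0.84, adjusted p = 0.0036). The first of these calls was lost without either iniG replicate or latN replicate 1. From unfE to larva it fell by 2.63 (log2, SE 0.81, edgeR adjusted p = 0.010), a call lost without either larva replicate.

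Genes that make, modify or bind the matrix were taken from a list by human symbol, and 37 were found and tested. From iniG to latN 16 rose and 4 fell (15.7% and 14.2% of all genes), from latN to midTII 12 rose and 4 fell (16.8% and 16.8%), and from unfE to larva 22 rose and 8 fell (38.3% and 33% of all genes). By stage of highest mean, 11 of 37 peaked in latTII and 6 in latN, beside 10.2% and 11.5% of all detected KY21 genes. The genes named below were taken from the 3 of each role with the highest mean TPM. CHSY3, SRC and SVEP1 each had a further match on the list with a lower mean TPM. Those matches were counted but are not described, and the values below do not speak for them.

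All 4 collagen-modifying enzymes rose from iniG to latN (15.7% of all genes did), and 2 fell from unfE to larva (33% of all genes did). In latN 3 of them had their peak (11.5% of all detected genes did), 2 stages before both COL4A6 matches and COL21A1 on the TPM scale. The other, P3H2 (KY21.Chr1.299), a prolyl 3-hydroxylase named here after its values were seen, peaked in midTII with a mean of 90.0 ± 4.0 TPM (SD, n = 2). P4HA2 (KY21.Chr1.2071), a prolyl hydroxylase that stabilizes the collagen helix, was at 309 and 259 TPM in iniG, 496 and 429 in latN, 225 and 222 in midTII, and 48.1 and 49.8 in larva. PLOD3 (KY21.Chr1.1251), a lysyl hydroxylase and glycosyltransferase of collagen, was at 174 and 141 TPM in iniG, 523 and 411 in latN, 343 and 262 in midTII, and 56.6 and 66.1 in larva, and COLGALT1 (KY21.Chr13.233), a collagen galactosyltransferase, at 179 and 207 in latN and 73.8 and 64.1 in larva. For P4HA2, PLOD3 and COLGALT1 both latN values exceeded all libraries of every other stage. P4HA2 rose by 0.91 and PLOD3 by 1.78 (log2) into latN (edgeR adjusted p = 0.0026 and 0.00010), and from midTII to latTII they fell by 1.5 and 1.59 (adjusted p = 0.00035 and 0.0013). In the step from midTII to latTII, COL4A6 KY21.Chr1.1215 was called higher, a call lost in 5 of 26 alternatives. COL4A6 KY21.Chr1.1213 and COL21A1 were not called in it (edgeR adjusted p = 0.33 and 0.13).

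Of the other matrix proteins on the list, 8 of 9 rose and 1 fell from unfE to larva (38.3% and 33% of all genes). EFEMP2 (KY21.Chr10.336), a fibulin relative that binds elastin, rose in 4 successive steps from 0.891 and 0.847 TPM in cell16 to 2.86 and 4.18 in iniG, 13.2 and 11.8 in latN, 116 and 133 in midTII, and 420 and 508 in latTII. SVEP1 (KY21.Chr10.946), a large adhesion protein, was at 3.82 and 4.53 TPM in latN, 217 and 259 in midTII, and 648 and 595 in latTII. NTN1 (KY21.Chr12.1009), the match of the laminin-related guidance protein netrin-1, also rose from cell16 on. It had 1.14 and 1.62 TPM in cell16, 55.4 and 33.3 in iniG, and 180 and 118 in latN. Its rise from cell16 to iniG was 4.89 on the log2 scale (edgeR adjusted p = 2.1e-06), in the same step as the first rises of EFEMP2, COL4A6 KY21.Chr1.1213 and FBLN1.

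All 4 matrix receptors and cell-surface proteoglycans rose from unfE to larva (38.3% of all genes did). SDC4 (KY21.Chr2.1121), a syndecan that works beside integrins, was abundant throughout, from 371 and 363 TPM in unfE to 848 and 804 in larva (log2 1.77, edgeR adjusted p = 2.3e-06). LRP4 (KY21.Chr11.269), a receptor known from the neuromuscular junction, was at 44.1 and 39.7 TPM in latN and 151 and 159 in midTII, and GPC5 (KY21.Chr1.664), a glypican, at 29.8 and 17.7 in iniG and 93.4 and 92.3 in latN. On the cytoplasmic side of integrins, 3 of 6 genes rose and 2 fell from unfE to larva (38.3% and 33% of all genes). ACTN2 (KY21.Chr11.1071), an alpha-actinin that is also a muscle Z-disc protein, was at 208 and 186 TPM in iniG and 1729 and 1841 in latTII. SRC (KY21.Chr1.941), a tyrosine kinase of adhesion sites, was at 148 and 158 TPM in unfE and 47.2 and 40.2 in midTII, with a fall of 0.72 (log2) into midTII (edgeR adjusted p = 0.0031).

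Genes of glycosaminoglycan synthesis did not share a direction, with 5 of 10 higher and 3 of 10 lower from unfE to larva (38.3% and 33% of all genes). UGDH (KY21.Chr14.371), which makes the glucuronic acid donor, was at 123 and 125 TPM in unfE and 246 and 217 in latTII. CHSY1 (KY21.Chr1.1486), a chondroitin synthase, was at 151 and 209 TPM in unfE, 38.5 and 47.0 in midTII, and 256 and 264 in larva, with a rise of 1.95 (log2) from latTII to larva (edgeR adjusted p = 7.4e-05). CHSY3 (KY21.Chr1.1242), of the same enzyme family, ranged from 72.0 to 140 TPM over the 16 libraries. Among the matrix-processing proteases, 2 of 4 rose from unfE to larva (38.3% of all genes did). MEP1B (KY21.Chr1.611), a meprin that cuts procollagen ends, was at or below 0.225 TPM through iniG, and at 29.2 and 35.3 in latN and 128 and 74.9 in latTII. MEP1A (KY21.Chr10.12), its sister subunit, was low, with 0.794 to 5.61 TPM, and FURIN (KY21.Chr1.1437), a convertase of pro-proteins, was at 145 and 138 TPM in iniG and 60.7 and 58.5 in larva.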

How the data were processed

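RNA was measured in 16 whole-embryo libraries, 2 at each of 8 stages. The submitters' processing notes name FastQC, Trim Galore, Salmon and DESeq2, and the authors mapped reads to the KY21 transcriptome with Salmon. The authors deposited estimated counts per gene (1 decimal, not normalized) and TPM, in which each library has 1 total that includes 36 rows without a KY21 identifier (18.3% to 27.4% of TPM). A further deposited table of DESeq2 signal values was found to be the counts over 1 factor per library and was not used.

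Rounded estimated counts entered edgeR 4.0.16 (R 4.3.3; TMM factors, filterByExpr by stage, robust quasi-likelihood F-test, Benjamini-Hochberg adjustment over 14643 genes). Standard errors were derived from the F statistic. Levels, onset and peak were computed from TPM in Python 3.11.15 with pandas 2.3.3 and numpy 2.4.6. DESeq2 1.42.0 and limma 3.58.1 were alternatives. The test was checked on simulated data. The libraries hold 23.1 to 33.4 M counts, and 2 replicates a stage limit the precision, as does counting error for members with few counts (FBLN5 and TECTA KY21.Chr1.1992).

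Members, gene lists and tests were chosen with earlier results of these data known. Every member is named, and of the 37 partner genes up to 3 of each role by mean TPM over 16 libraries. The values of 1 partner gene are not reported here. The labels do not say whether the libraries of a stage came from separate parents, so p-values measure the spread between these libraries. Replicates of a stage differed by many times the sampling noise and were not copies.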

Additional observations from a re-analysis of the deposited data

How the results depend on the processing

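Of the 59 called changes of members (the 7 steps and unfE to larva), 36 were kept under every alternative. The alternatives with other tools, scalings, filters or thresholds lost 0 to 19 calls, and leaving out 1 library lost 1 to 5. RLE size factors, DESeq2, a minimum of 50 counts and the replicate block each lost 0 of the 59, library totals 3, no filter on low counts 3, and limma with a pseudocount of 1 or 0.1 lost 5 each. Same-numbered libraries deviated together in some steps and not in others (correlation of deviations 0.746 for unfE and fertE, 0.75 for fertE and cell16, 0.625 for iniG and latN, 0.156 for latTII and larva, and 0.0177 to 0.045 in the other 3 steps), so the numbers were not taken to pair the libraries in all stages. The replicate block changed none of the 59 calls.

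A test against a log2 change of 1 moved the number of changed members from 12 to 7 (iniG to latN), from 6 to 3 (midTII to latTII), from 8 to 1 (latTII to larva) and from 1 to 0 (fertE to cell16), since it asks for a larger change. For fertE to cell16, DESeq2 gave 2 and the 4 libraries of those stages alone gave 0. For cell16 to iniG, no filter on low counts gave 2 against 4. Leaving out 1 library gave 0 to 1 changed members for fertE to cell16 (0 without any 1 of the 4 libraries), 2 to 6 for cell16 to iniG (2 without cell16 replicate 2), 10 to 12 for iniG to latN, 10 to 11 for latN to midTII, 4 to 7 for midTII to latTII, 5 to 8 for latTII to larva (5 without larva replicate 2) and 14 to 17 for unfE to larva. Where an arm then held 1 library, it was assumed to vary like the others. The direction turned in 1 case, ITGB1 KY21.Chr10.1157 from cell16 to iniG, from 5.99 to -0.54 without iniG replicate 2 (highest 6.98, without iniG replicate 1).

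Members detected in unfE numbered 18, and 12 to 22 with other limits (TPM of 1, TPM of 5, both replicates at 2, or at least 10 counts), and 18 with TPM rescaled to KY21 genes, an alternative chosen after seeing the data. Members with a peak in the last 3 stages numbered 15, and 15 to 17 under the alternatives.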

Other observations

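Of 144 stage means of members at or above 2 TPM, the replicates differed by over 2 times in 11. HSPG2 accounts for 4 of these (unfE, fertE, cell16 and midTII), COL6A6 for 2 (cell16 and midTII) and ITGB1 KY21.Chr10.1157 for 2 (unfE and iniG), and the rest are TECTA KY21.Chr11.867 in unfE, ITGB1 KY21.Chr10.1104 in unfE and ADAMTS15 in iniG. In ITGB1 KY21.Chr10.1157 the gastrula libraries held 8.1 and 1640 estimated counts in replicates 1 and 2. Other genes called higher in iniG differed less and not in a single direction. NTN1 had 55.4 and 33.3 TPM and FBLN1 15.3 and 13.1, while COL4A6 KY21.Chr1.1213 had 9.85 and 11.1. The summed TPM of the 9 muscle genes was 81.6 and 152 in the iniG libraries, lowest first. Why these libraries differed was not tested.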
